A study of Mus musculus with 10 samples.

Results

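The protein phosphatase genes described here are the Ppp, Ppm1 and Dusp genes of the mouse, measured on Affymetrix arrays in whole embryonic hearts. They were chosen by name, as genes whose symbol begins with Ppp1 to Ppp6, Ppm1 or Dusp and a digit, leaving out Ppp1r15a and Ppp1r15b. This gave 113 of the 18193 genes measured, carried by 238 of the 45101 probe sets of the array. Where a gene had several probe sets, the one with the highest mean over the 10 arrays stood for it, so the mean level took part in the choice and is given only as a description. By prefix there were 77 Ppp, 12 Ppm1 and 24 Dusp genes.

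Hearts came from female embryos at 13.5 days post coitum. The 5 knockout arrays held hearts with a heterozygous, heart-conditional deletion of Hccs, and the 5 control arrays held hearts of littermates labelled as controls. Each array held RNA from a pool of 4 to 5 hearts of 1 genotype. Hccs, on the X chromosome, encodes the haem lyase that completes cytochrome c in mitochondria. Random X inactivation leaves a heterozygous female heart with a mix of cells that have and lack it. The Cre driver and any alleles that the controls share with the knockouts are not given in the sources used here. Because whole hearts were measured, fewer cells of a type and less RNA per cell cannot be told apart.

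Protein phosphatases remove the phosphate groups that kinases add. The Ppp family (PP1, PP2A, calcineurin, PP4, PP5 and PP6) works as complexes, in which a few catalytic subunits, shared by many complexes, are directed to their substrates by a large set of regulatory subunits. The Ppm1 family consists of single-chain, metal-dependent serine and threonine phosphatases. The Dusp family removes phosphate from tyrosine as well as serine and threonine, and its MAP kinase phosphatases switch off ERK, JNK and p38. In heart muscle PP1 and PP2A act on calcium-handling and contractile proteins, and calcineurin signals through NFAT transcription factors.

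The arrays matched the tissue label. The 8 cardiomyocyte markers had a summed log2 signal of 18.45 to 18.53 in the controls and 18.24 to 18.43 in the knockouts, and the change of -0.14 had an exact two-sided permutation p of 0.00794, the smallest that 5 against 5 arrays allow. The log2 signal of Hccs lay between 11.11 and 11.31 in the controls and between 10.39 and 10.90 in the knockouts (log2 change -0.55, SE 0.090, limma adjusted p = 0.0225). Its adjusted p was 0.0511, 0.0511, 0.0517 and 0.0563 without control replicate 2, control replicate 3, knockout replicate 2 and knockout replicate 4. An 18S ribosomal RNA 5′ control signal was also lower in the knockouts (10.05 ± 1.25 against 8.17 ± 0.35, log2, mean ± SD, n = 5 each, exact permutation p = 0.0238), while the middle and 3′ probe sets of that RNA had exact permutation p of 0.0794 and 0.222. In control replicate 3, markers of nerve cells stood high (summed log2 signal 8.99, against 6.40 to 7.14 in the other controls). In knockout replicate 3, the lung epithelial marker Sftpc stood at 7.08, against 2.65 to 2.83 elsewhere. The epithelial markers Epcam and Cdh1 were highest in that array too (8.21 and 7.86), but Cdh1 also reached 6.34 in control replicate 1, 6.30 in control replicate 4 and 6.81 in knockout replicate 4, and Nkx2-1 was between 1.49 and 1.57 in all arrays.

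Among the 113 phosphatase genes 8 fell and 1 rose in the knockout hearts. The 8 were Ppp6r3, Ppp1r13l, Dusp16, Ppm1e, Ppp1r12b, Dusp26, Ppp1r3b and Ppm1k, and the 1 that rose was Ppm1d. These counts are at a limma adjusted p under 0.05 over all genes. Across the 18193 genes 0.945% were called lower and 1.63% higher. Of the phosphatase genes 7.08% were lower, above that share, and 0.885% were higher, below it. The members were brighter than the genes as a whole, with a median log2 level of 8.21 against 6.50 and 78 of 113 at or above the median. In a fit of the genes above the median level 10 of 78 members were lower, against 3.12% of the genes in it. In that fit 1 member was higher, against 5.22%. In both directions together 7.96% of the members and 2.58% of all genes were called. The groups did not overlap for 8 lower and 1 higher member, against 1.92% and 3.86% of all genes, and 5.79% in both directions. The 1 higher gene without overlap was Ppp3cc, which was not called. At an unadjusted limma p below 0.05 there were 24 lower and 10 higher members, or 30.1% in all, against 7.48% lower, 13.2% higher and 20.6% in all among the genes measured. The median log2 change was -0.031 over the members and 0.025 over all genes. No test of the group as a whole was made, since the genes were grouped with results of these arrays known. The 34 measured protein tyrosine phosphatases (Ptpn and Ptpr genes), listed for comparison, had a median change of -0.10, with 1 gene lower, Ptprm, and none higher at the adjusted threshold, with 5 lower and none higher at an unadjusted limma p under 0.05.

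**Figure D1:**
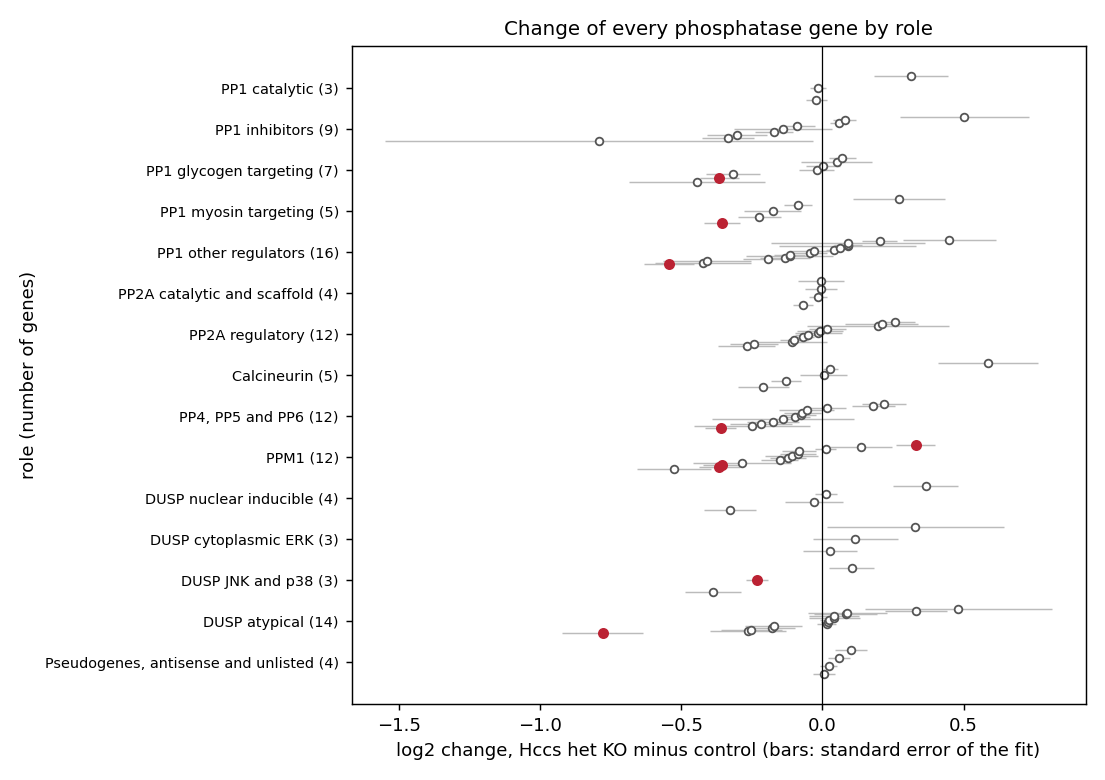
Log2 change of the probe set signal (horizontal axis, Hccs het KO minus control, with the standard error of the limma fit) for each of the 113 phosphatase genes, in rows by role with the number of genes in brackets. Filled red points passed an adjusted p of 0.05 over all genes: 8 lie left of 0 and 1, Ppm1d, lies right of it, while the catalytic and scaffold subunits of PP2A sit close to 0.

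The 8 falls were spread over the families, with 4 among the Ppp genes, all of them regulatory subunits, 2 among the Ppm1 genes and 2 among the Dusp genes. None of the 11 catalytic subunits of PP1, PP2A, calcineurin, PP4, PP5 and PP6 passed. In GRCm38.p6 the 9 called genes lie on chromosomes 19 (Ppp6r3), 7 (Ppp1r13l), 6 (Dusp16 and Ppm1k), 11 (Ppm1e and Ppm1d), 1 (Ppp1r12b) and 8 (Dusp26 and Ppp1r3b). Dusp16 fell by 14.8% and Dusp26 fell by 41.7%, the ends of the range. The number called depended on which arrays were in the fit, for the members and for all genes, and the reason was not tested. The number of members called lower was 2, 3, 3, 5 and 7 without control replicate 1, 2, 3, 4 and 5. Without knockout replicate 1, 2, 3, 4 and 5 it was 9, 1, 2, 0 and 3. In those fits 0.176% to 1.59% of all genes were called lower, against 0.945% with all 10 arrays. The 1.59% was without knockout replicate 1. The direction of all 9 changes was the same in every alternative that was run.

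The promoters of 4 of the 9 genes are shown as the letters upstream of a RefSeq start, because Ppm1d alone rose while Ppp6r3, Ppp1r13l and Ppm1k fell. Each is the 250 bases before the start in GRCm38.p6, read 5′ to 3′ on the gene's strand. Capitals mark matches, on either strand, to the GC box GGGCGG, the CCAAT box, the cAMP response element TGACGTCA, the NKX2-5 core AAGTGG or the p53 half-site. Searches for the ATF4 element TGATGNAA and the GATA core AGATAA found no match in these 4.
Ppm1d, chr11:85311004-85311253, plus strand: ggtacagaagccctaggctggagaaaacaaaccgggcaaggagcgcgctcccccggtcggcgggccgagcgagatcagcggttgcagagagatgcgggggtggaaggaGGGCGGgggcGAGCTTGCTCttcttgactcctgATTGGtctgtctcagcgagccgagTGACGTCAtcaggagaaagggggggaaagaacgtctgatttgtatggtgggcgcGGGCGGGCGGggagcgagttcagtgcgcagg
Ppp6r3, chr19:3575750-3575999, minus strand: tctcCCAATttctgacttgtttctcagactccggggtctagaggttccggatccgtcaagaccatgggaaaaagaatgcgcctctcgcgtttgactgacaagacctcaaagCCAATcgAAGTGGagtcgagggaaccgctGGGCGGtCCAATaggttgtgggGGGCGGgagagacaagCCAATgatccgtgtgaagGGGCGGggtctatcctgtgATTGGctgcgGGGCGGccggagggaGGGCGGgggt
Ppp1r13l, chr7:19360966-19361215, plus strand: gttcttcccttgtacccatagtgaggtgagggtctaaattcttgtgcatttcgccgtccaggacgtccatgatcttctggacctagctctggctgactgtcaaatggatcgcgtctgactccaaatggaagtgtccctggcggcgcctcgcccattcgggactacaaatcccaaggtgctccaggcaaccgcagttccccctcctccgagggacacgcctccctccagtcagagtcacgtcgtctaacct
Ppm1k, chr6:57535488-57535737, minus strand: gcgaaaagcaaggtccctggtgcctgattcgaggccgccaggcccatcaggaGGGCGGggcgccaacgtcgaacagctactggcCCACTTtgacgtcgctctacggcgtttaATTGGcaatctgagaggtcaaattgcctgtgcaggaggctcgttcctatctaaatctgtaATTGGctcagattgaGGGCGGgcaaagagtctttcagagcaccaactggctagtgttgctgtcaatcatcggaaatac
The Ppm1d window holds both a full cAMP response element and a p53 half-site, which occur in 1.55% and 7.13% of all 32851 promoter windows of this length. A window was found for 88 of the 113 genes and for 7 of the 9 called, with 107 windows in all. The cAMP response element was in 8 of the 107, and the p53 half-site was in 4 (3.74%). For the 8 genes that fell there were 7 windows, which belonged to 6 of the genes. The AAGTGG letters are those of the core that the cardiac factor NKX2-5 binds. They were in 3 of these 7 windows (Ppm1k, Ppp1r12b and Ppp6r3), against 14.1% of all windows and 15.9% of those of the members. GC boxes were in 4 of these 7 windows, against 61.7% of those of the members and 32.7% of all windows, and CCAAT boxes were in 4, against 33.6% and 33.8%. The Ppp1r13l window lies inside the annotated gene, at a start downstream of its first, and holds no match. A match is a run of letters and was not tested as a binding site.

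Of the PP1 regulators, Ppp1r13l fell furthest among those called. It encodes iASPP, an inhibitor of p53 that is also needed for the integrity of heart muscle. Its log2 signals were 8.25, 8.20, 8.26, 8.28 and 8.23 in control replicates 1 to 5 and 7.85, 7.56, 7.53, 7.56 and 7.99 in knockout replicates 1 to 5. Every knockout pool lay below every control pool, and the knockouts were more spread than the controls, with replicates 1 and 5 above the others. It fell by 31.4% (log2 change -0.54, SE 0.089, limma adjusted p = 0.0225). All 4 of its probe sets pointed down, and another with separate groups changed by -0.61 (SE 0.093), but it was designed on the same transcript record and is no independent measure. A probe set from a different record, at a similar level, changed by -0.33 (SE 0.078, limma adjusted p = 0.0755 over all probe sets), and its groups overlapped. The remaining probe set had low mean signals, 1.92 in the controls and 1.84 in the knockouts.

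Ppp1r12b, which encodes the myosin-targeting subunit MYPT2 of striated muscle, fell by 21.9%. The log2 signals were 8.53, 8.57, 8.80, 8.43 and 8.56 in the controls and 8.29, 8.23, 8.19, 8.26 and 8.14 in the knockouts. The groups did not overlap, and control replicate 3 was the highest of the 10 arrays (log2 change -0.36, SE 0.065, limma adjusted p = 0.0279). Of its 4 probe sets 2 pointed down, and all but the brightest had mean log2 levels below 4. Its smooth-muscle relative Ppp1r12a, the MYPT1 subunit, changed by -0.22 on the log2 scale (SE 0.077), which missed the threshold (limma adjusted p = 0.15). Without control replicate 5, the lowest control for Ppp1r12a at 11.36, that change was -0.29 with a limma adjusted p of 0.0292. The summed signal of 6 smooth muscle markers was 15.35 to 15.45 in the controls and 15.09 to 15.40 in the knockouts (change -0.15, exact permutation p = 0.0317). Acta2, the brightest (control mean 15.03), weighed most in that sum and changed by -0.13 (log2, SE 0.047). Of the 6 markers 4 went down and 2 up, with Myh11 at 0.55 (SE 0.45), and none passed in limma. The part of smooth muscle in these values was not tested.

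Ppp1r3b targets PP1 to glycogen, where it activates glycogen synthase. Log2 signals of this gene were 10.21, 10.32, 10.52, 10.15 and 10.26 in the controls and 10.01, 9.99, 9.84, 9.87 and 9.92 in the knockouts. No knockout reached the lowest control, and the gene fell by 22.4% (log2 change -0.37, SE 0.068, limma adjusted p = 0.0294). Ppp1r3c, a second glycogen-targeting subunit and the brightest of the 7 in this role, changed by -0.32 (log2, SE 0.095) with an adjusted p of 0.11 in limma, and its groups overlapped. Its second probe set, with a control mean of 10.84, changed by -0.048 (SE 0.12). The other 5 glycogen-targeting genes had changes from -0.44 (Ppp1r3g) to 0.070 (Ppp1r3a), and none passed.

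None of the 9 PP1 inhibitors passed in limma, and 3 lower and none higher had an unadjusted p under 0.05. That is 33.3% of them, against 7.48% lower and 13.2% higher over all genes. Ppp1r1a encodes inhibitor 1, which blocks PP1 in heart muscle once protein kinase A has phosphorylated it. Its signals ran from 9.51 to 9.82 in the controls and from 9.05 to 9.54 in the knockouts (log2 change -0.34, SE 0.092, limma adjusted p = 0.0884). Ppp1r14c, the brightest inhibitor, changed by -0.30 (log2, SE 0.11, limma adjusted p = 0.158), with control replicate 1, at 12.74, below the range of 13.14 to 13.26 of the other controls. Ppp1r14a, an inhibitor that acts on myosin phosphatase in smooth muscle, had a change of 0.50 with a wide error (SE 0.23). Among the 16 other PP1 regulators Ppp1r8, the nuclear inhibitor NIPP1, changed by 0.20 (log2, SE 0.062, limma adjusted p = 0.115), and it was the brightest of them. Ppp1r36 had the highest change of this role, 0.45 (SE 0.17, limma adjusted p = 0.171). Ppp1r8 passed with the mean of its probe sets (log2 change 0.29, adjusted p = 0.0371) and with its most variable probe set (0.38, adjusted p = 0.026), both in limma.

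Ppp1r1c, another PP1 inhibitor, was high in 1 array and low in all others. Its log2 signal was 6.35 in control replicate 3 and between 2.14 and 2.25 in the other 9 arrays. The same array held the highest signals of the nerve cell markers Tubb3 (8.02, against 3.12 to 5.30 in the other arrays), Elavl4 (7.30, against 4.32 to 5.67) and Th (3.43, against 1.92 to 2.01). Sox10 was also highest there, at 5.28, while Dbh, at 5.39, was not. This gene was singled out after its values were seen, and its log2 change was -0.79 (SE 0.76, limma adjusted p = 0.574). Dusp26 did not share this pattern, at 6.17 in control replicate 3 within the control range of 6.09 to 6.74.

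**Figure D2:**
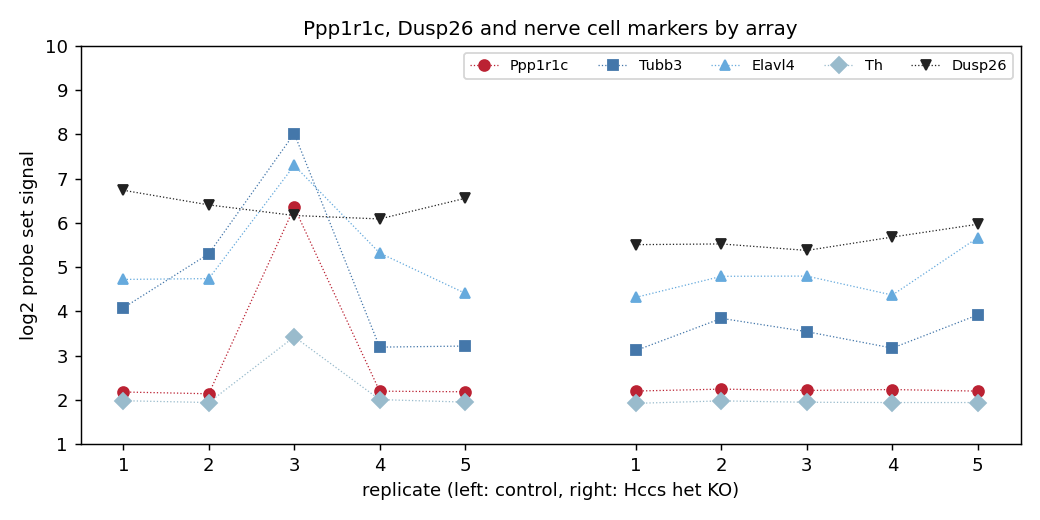
Log2 probe set signal (vertical axis) of Ppp1r1c and Dusp26 and of the nerve cell markers Tubb3, Elavl4 and Th in each array (horizontal axis, control replicates left and Hccs het KO replicates right; dotted lines only join points of a gene). Control replicate 3 alone is high for Ppp1r1c, at 6.35, and for the 3 markers, while the highest knockout array for Dusp26, at 5.97, lies below its lowest control, at 6.09.

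None of the 3 PP1 catalytic subunits passed in limma, and 1, Ppp1cb, had an unadjusted p under 0.05. Ppp1ca and Ppp1cc, the alpha and gamma forms, had log2 changes of -0.016 (SE 0.029) and -0.022 (SE 0.038), so a change of either was not detectable at this precision. Ppp1cb, the beta form that joins the MYPT subunits in myosin phosphatase, had signals of 13.26, 13.45, 13.53, 13.19 and 13.26 in the controls and 13.44, 13.97, 13.90, 13.64 and 13.32 in the knockouts. Knockout replicates 2, 3 and 4 stood above every control, and replicates 1 and 5 lay among them. The log2 change was 0.31 (SE 0.13, limma adjusted p = 0.215), and all 4 of its probe sets pointed up. Within arrays, the change of Ppp1cb exceeded that of Ppp1cc by 0.34 and that of Ppp1ca by 0.33. Over the 6 paralogue pairs compared, both differences had an adjusted p of 0.238 (exact two-sided permutation p of 0.0476 and 0.0794, n = 5 each) and did not pass. In the same exact permutation test both had an adjusted p of 0.0476 with the mean of the probe sets of each gene. With the most variable probe set Ppp1cb minus Ppp1cc was 0.18 and Ppp1ca minus Ppp1cb was -0.26, with an adjusted exact permutation p of 0.733 and 0.714.

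None of the 4 catalytic and scaffold genes of PP2A passed in limma, at an unadjusted p under 0.05 either. Ppp2ca, the alpha catalytic subunit, had signals from 13.26 to 13.30 in the controls and from 13.21 to 13.33 in the knockouts, a log2 change of -0.016 (SE 0.032). Ppp2cb had -0.068 (SE 0.035), and the scaffold genes Ppp2r1a and Ppp2r1b had -0.0049 (SE 0.058) and -0.0036 (SE 0.082). The probe sets of Ppp2r1a disagreed in size: all 5 pointed down, and 2 others had groups that did not overlap, with log2 changes of -0.24 (SE 0.038, limma adjusted p = 0.0284 over all probe sets) and -0.19 (SE 0.038, limma adjusted p = 0.0516). The change of Ppp2ca differed from that of Ppp2cb by 0.051, and that of Ppp2r1a from Ppp2r1b by -0.0012, neither past an exact permutation test (p = 0.214 and p = 0.992, n = 5 each). Of 12 PP2A regulatory subunits none passed in limma. At an unadjusted limma p under 0.05 there were 1 higher and 2 lower, 25% of them against 20.6% of all genes. These were Ppp2r5d (log2 change 0.26, SE 0.070, limma adjusted p = 0.0856), Ppp2r5b (-0.24, SE 0.085) and Ppp2r3a (-0.27, SE 0.10). Ppp2r5d passed without control replicate 5 (limma adjusted p = 0.0427), which at 8.87 lay above the other controls, and without knockout replicate 1 (0.0435). Among 11 genes that modify PP2A, such as its inhibitors, none passed in limma. Of these 11 genes 2 (18.2%) were higher and none lower at an unadjusted limma p under 0.05, against 13.2% higher over all genes. The brightest, Set, an inhibitor of PP2A, had a log2 change of 0.13 (SE 0.069).

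Calcineurin, the calcium-dependent phosphatase, had no subunit past the threshold. The largest change was that of Ppp3cc, the gamma catalytic subunit. Its log2 signals were 5.93, 6.30, 6.35, 5.74 and 6.10 in the controls and 6.39, 6.53, 7.11, 6.97 and 6.35 in the knockouts. The groups met without overlapping, at 6.35 on both sides to 2 decimals, and the log2 change was 0.59 (SE 0.18, limma adjusted p = 0.112). Ppp3ca had a change of 0.0046 (SE 0.083) and Ppp3cb, the brightest subunit, of -0.13 (SE 0.054). The difference between these 2 changes, 0.13, had an exact permutation p of 0.31 (n = 5 each). Of 12 measured calcineurin partners and NFAT factors 1 fell, Nfatc2, a transcription factor that calcineurin activates (log2 change -0.63, SE 0.13, limma adjusted p = 0.0409). The list's median change was -0.22, with 6 lower and 1 higher at an unadjusted limma p under 0.05. That is 58.3% of the list, against 20.6% of all genes (7.48% lower and 13.2% higher). Myoz2, a Z-disc protein that binds calcineurin and the brightest gene that missed the threshold, changed by -0.24 (log2, SE 0.11).

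**Figure D3:**
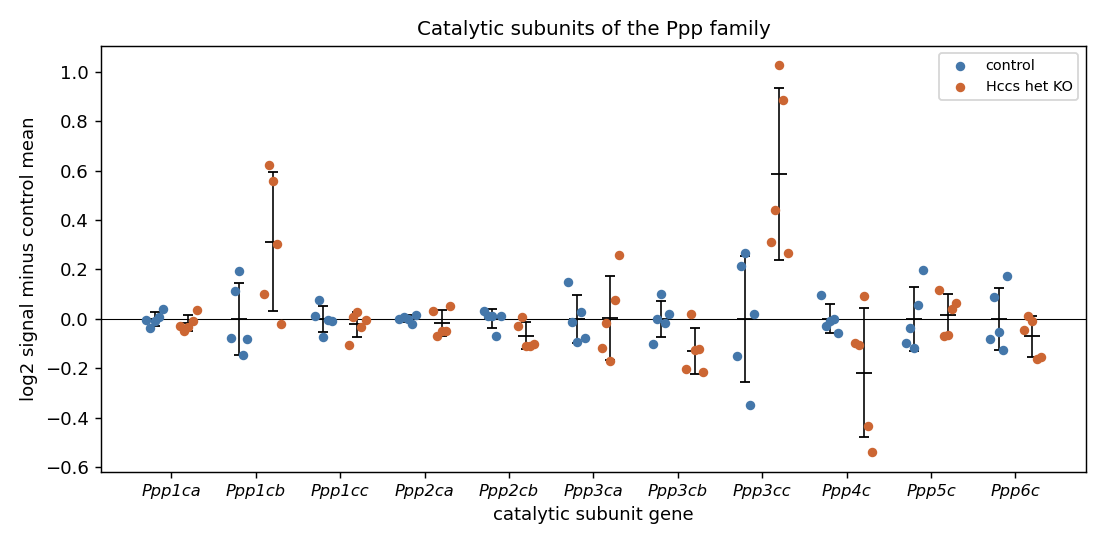
Log2 signal minus the gene's control mean (vertical axis) for the 11 catalytic subunit genes, with 5 control arrays in blue and 5 Hccs het KO arrays in orange (points), and the mean and SD (black). None passed an adjusted p of 0.05. Ppp1cb and Ppp3cc have the highest knockout means, at 0.31 and 0.59, while Ppp1ca, Ppp1cc and Ppp2ca lie within a narrow band around 0.

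PP6 is a nuclear and cytoplasmic phosphatase that acts on Aurora kinase A and on DNA repair proteins, and Ppp6r3 encodes a subunit that recognises its substrates. The log2 signals were 9.21, 9.17, 9.29, 9.12 and 9.21 in the controls and 8.88, 9.01, 8.78, 8.79 and 8.73 in the knockouts. The highest knockout lay below the lowest control, and Ppp6r3 had the smallest p of all members (log2 change -0.36, SE 0.056, limma adjusted p = 0.0201). Of its 5 probe sets 4 pointed down. The catalytic subunit Ppp6c had a log2 change of -0.071 (SE 0.065), and its regulators Ppp6r1 and Ppp6r2 had -0.25 (SE 0.21) and -0.056 (SE 0.098). Ppp4c, the PP4 catalytic subunit, had -0.22 (SE 0.11), with knockout replicates 4 and 5, at 10.75 and 10.64, below the other 8 arrays (11.07 to 11.28). Ppp5c had 0.018 (SE 0.066). Ppp4r2, the brightest gene of this role, had -0.077 (SE 0.055), and Ppp4r4 had 0.22 (SE 0.077, limma adjusted p = 0.161) at a level near 3 on the log2 scale.

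The 12 Ppm1 genes held 3 of the 9 calls, so 25% of them were called, against 2.58% of all genes. Ppm1d encodes Wip1, which p53 induces and which in turn removes phosphate from p53 and p38. Log2 signals of this gene were 8.35, 8.36, 8.31, 8.47 and 8.64 in the controls and 8.81, 8.70, 8.86, 8.64 and 8.77 in the knockouts. Control replicate 5 and knockout replicate 4 met at 8.64, and the other knockouts lay above every control. The rise was 1.26-fold (log2 change 0.33, SE 0.069, limma adjusted p = 0.0422). A second Ppm1d probe set had a log2 change of -0.022 (SE 0.096), so the probe sets of this gene disagreed. The adjusted p of Ppm1d was 0.0572 after quantile normalization, 0.0706 after median centring and 0.0554 with a trended, robust variance, all in limma.

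Ppm1k encodes the mitochondrial matrix phosphatase that activates the branched-chain keto acid dehydrogenase, the step that commits branched-chain amino acids to oxidation. Its log2 signals were 9.07, 9.20, 9.27, 9.27 and 9.14 in the controls and 8.90, 8.60, 8.75, 8.94 and 8.93 in the knockouts. All knockouts lay below all controls, with knockout replicate 2 the lowest, and Ppm1k fell by 22.4% (log2 change -0.37, SE 0.073, limma adjusted p = 0.0365). After median centring its adjusted p was 0.0638 in limma. Its second probe set had -0.14 (SE 0.24).

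Ppm1e, which acts on calmodulin-dependent kinases and PAK kinases, fell by 21.9%. The log2 signals were 6.77, 6.91, 6.82, 6.80 and 6.81 in the controls and 6.63, 6.56, 6.32, 6.49 and 6.33 in the knockouts. The groups did not overlap, and the knockouts spread more than the controls (SD 0.14 against 0.054; log2 change -0.36, SE 0.064, limma adjusted p = 0.0275). Ppm1l, a phosphatase of the endoplasmic reticulum, had a larger change but a wider spread and did not pass (log2 change -0.53, SE 0.13, limma adjusted p = 0.0661). It passed without knockout replicate 1 (limma adjusted p = 0.0228), whose signal of 8.26 lay among the controls. Ppm1g, the brightest member of this family, had -0.087 (SE 0.065).

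**Figure D4:**
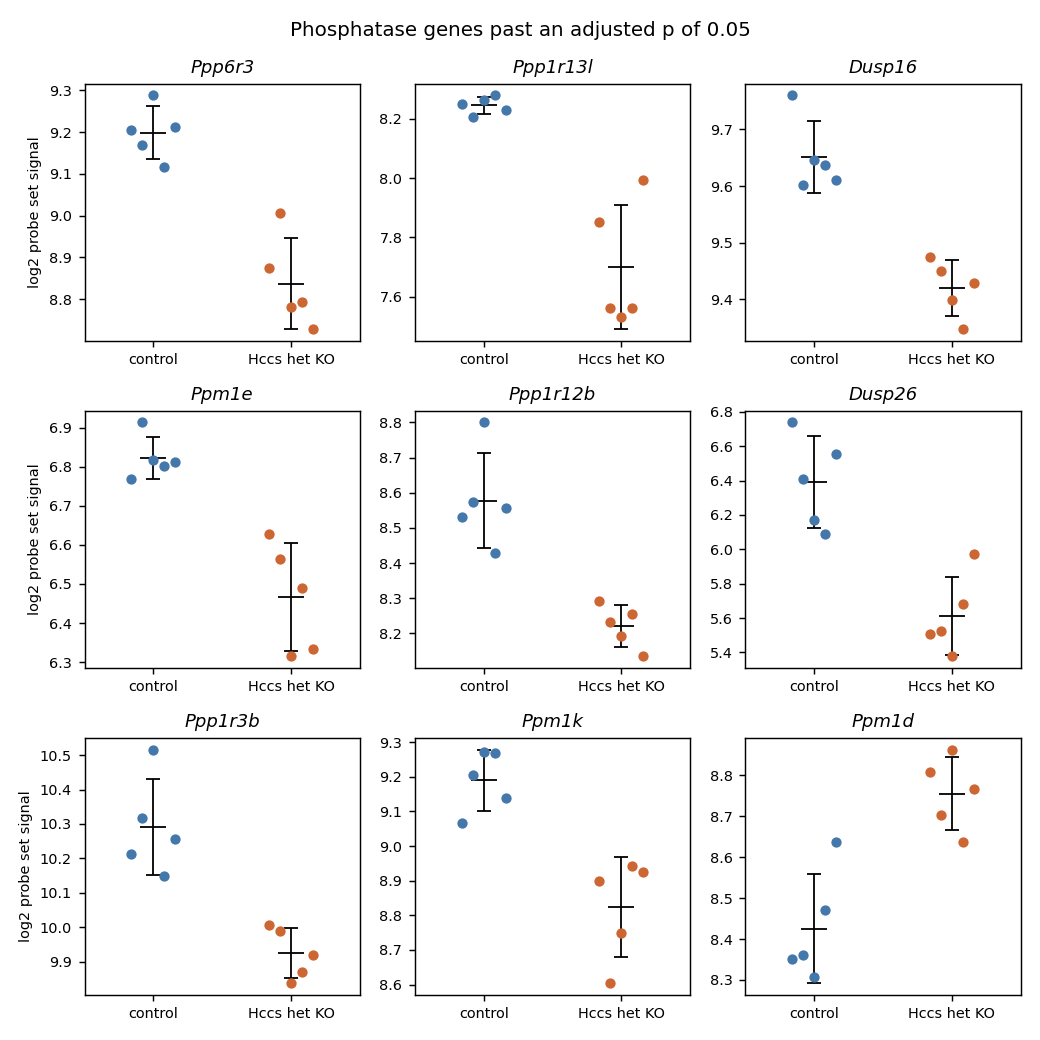
Log2 probe set signal (vertical axes, each with its own range that does not start at 0) of the 9 phosphatase genes past an adjusted p of 0.05, in 5 control and 5 Hccs het KO arrays (points), with mean and SD (black). The groups are apart for the 8 genes that fell, and for Ppm1d they meet at 8.64.

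Of the 10 MAP kinase phosphatases 1 passed, and it fell. This was Dusp16, whose product prefers JNK and p38. It had signals of 9.76, 9.60, 9.65, 9.64 and 9.61 in the controls and 9.48, 9.45, 9.40, 9.35 and 9.43 in the knockouts. The groups were apart, with control replicate 1 above the other controls (log2 change -0.23, SE 0.040, limma adjusted p = 0.025). Dusp8, which also acts on JNK and p38, had signals of 7.53 to 7.91 in the controls and 7.09 to 7.55 in the knockouts (log2 change -0.39, SE 0.099, limma adjusted p = 0.0722). Dusp10, the other gene of this class, had 0.10 (SE 0.079). No difference between the classes was tested. Across the prefixes 2 of 24 Dusp genes, 4 of 77 Ppp genes and 2 of 12 Ppm1 genes fell. These are 8.33%, 5.19% and 16.7%, against 0.945% of all genes.

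Of the 4 nuclear, inducible MAP kinase phosphatases none passed in limma. Dusp1, a target of stress and growth signals that acts on p38 and JNK, had signals of 10.35, 10.21, 10.15, 10.59 and 10.34 in the controls and 10.14, 10.15, 9.87, 9.93 and 9.91 in the knockouts. Knockout replicates 1 and 2 lay at the lower edge of the controls and the other knockouts below them (log2 change -0.33, SE 0.091, limma adjusted p = 0.0923). Dusp4 went the other way, with 6.04 to 6.52 in the controls and 6.50 to 6.85 in the knockouts (log2 change 0.37, SE 0.11, limma adjusted p = 0.124). Dusp2 and Dusp5 had changes of -0.030 (SE 0.10) and 0.014 (SE 0.039). None of the 3 cytoplasmic phosphatases of ERK passed either. Dusp6, the feedback inhibitor of ERK and the brightest of them, had 0.12 (SE 0.15), Dusp7 had 0.028 (SE 0.096), and Dusp9 had 0.33 (SE 0.31). The probe sets of Dusp7 and of Dusp9 disagreed. A dimmer Dusp7 probe set, with a control mean of 5.88, changed by 0.36 (SE 0.088, limma adjusted p = 0.0864 over all probe sets). Its groups did not overlap. The remaining Dusp7 probe set changed by -0.00043 (SE 0.035). The other Dusp9 probe sets changed by 1.07 (SE 0.48) and -0.39 (SE 0.22).

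**Figure D5:**
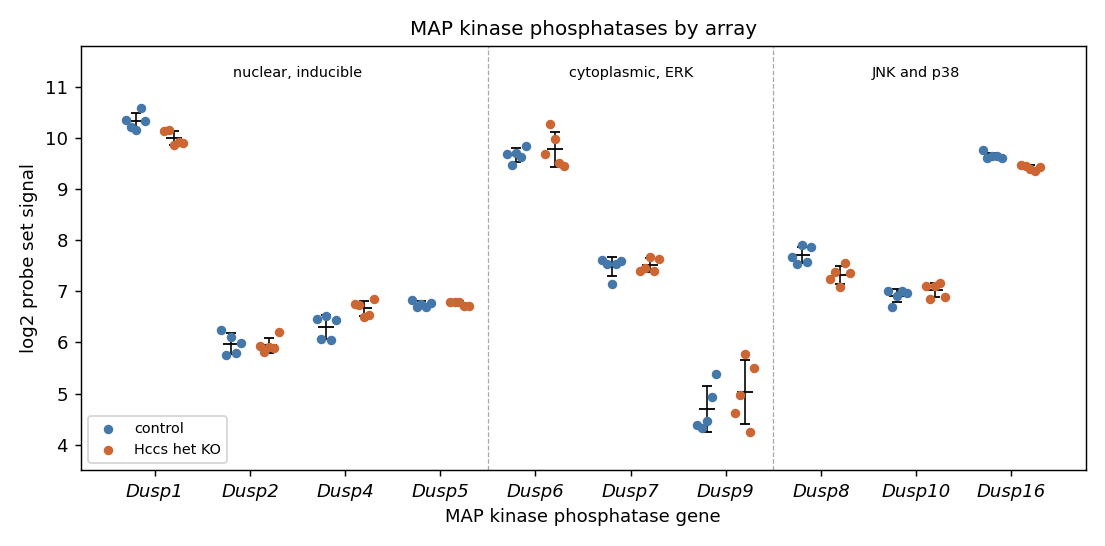
Log2 probe set signal (vertical axis) of the 10 MAP kinase phosphatase genes in 5 control arrays (blue) and 5 Hccs het KO arrays (orange), with mean and SD (black), grouped by the class of their substrates. Levels of different genes are not comparable on this scale. Dusp16 is lower in every knockout than in any control, and the groups of the other genes overlap.

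Among the kinases that these enzymes act on and their upstream kinases, 1 of 18 measured genes rose. Mapk9, which encodes the kinase JNK2, was higher by 0.30 (log2, SE 0.064, limma adjusted p = 0.0465), with signals of 9.08 to 9.28 in the controls and 9.33 to 9.59 in the knockouts. Mapk6, the brightest that did not pass, had -0.0067 (SE 0.064). Of 22 measured ERK feedback and immediate early genes, Spred1, an inhibitor of the Ras to ERK pathway, rose (log2 change 0.28, SE 0.059, limma adjusted p = 0.0445) and none fell. At an unadjusted limma p under 0.05 there were 5 higher and 1 lower, and the list's median change was 0.076. That is 27.3% of this list, against 20.6% of all genes (13.2% higher and 7.48% lower). Jund, the brightest that did not pass, had -0.16 (SE 0.063).

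Of the 14 atypical Dusp genes only Dusp26 passed. It encodes a small phosphatase that lacks a MAP kinase docking domain. Log2 signals of this gene were 6.74, 6.41, 6.17, 6.09 and 6.56 in the controls and 5.51, 5.53, 5.38, 5.68 and 5.97 in the knockouts. The groups did not overlap, and knockout replicate 5 came nearest to the controls. The change was the largest of the 9 (log2 change -0.78, SE 0.14, limma adjusted p = 0.0292). Without control replicate 3 it was -0.84. Dusp26 has a single probe set. Dusp19 changed by 0.33 (log2, SE 0.11, limma adjusted p = 0.14), and Dusp3, the brightest atypical gene, by -0.17 (SE 0.10). A second Dusp19 probe set from the same record, at nearly the same control mean (7.77 against 7.84), changed by 0.024 (SE 0.096). The remaining 4 members, the pseudogenes Ppp1r2-ps7 and Ppp1r2-ps9, the antisense RNA Ppp2r2cos and Ppp1r14bl, had changes between 0.0054 and 0.10, at log2 levels under 3, and none passed in limma.

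Each of the 9 calls depended on the arrays kept. All 9 passed without knockout replicate 1, and none without knockout replicate 4. Without knockout replicate 2 Ppp6r3 alone passed, without knockout replicate 3 Ppp6r3 and Ppp1r13l passed, and without knockout replicate 5 Ppp6r3, Ppp1r13l and Dusp26 passed. Without control replicate 1 Ppp6r3 and Dusp16 passed, and without control replicate 2 these and Ppp1r13l did. Without control replicate 3 Ppp6r3, Ppp1r12b and Ppp1r3b passed, without control replicate 4 the same 3 with Ppp1r13l and Dusp26 did, and without control replicate 5 all but Dusp26 and Ppm1k did. The limma adjusted p of the calls lost in these fits ran from 0.0501 to 0.0933. Ppp6r3 kept its call in 9 of the 10 fits, Ppp1r13l in 6, and Ppm1k in 1. The Ppp6r3 change ran from -0.40 to -0.33 over the 10 fits. Without the arrays numbered 3 of both genotypes, the ones in which the nerve cell and lung epithelial sums were highest, none of the 9 passed, with limma adjusted p from 0.0815 to 0.176. In that fit of 8 arrays 0.022% of all genes were called lower and 0.143% higher, so calls were lost across the whole table. The changes kept their directions, with Dusp26 at -0.78, Dusp16 at -0.23 and Ppp6r3 at -0.32.

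The falls stood beside other differences between the groups. Of the 8 cardiomyocyte markers 2 also fell, Myh7 (log2 change -0.47, SE 0.082, limma adjusted p = 0.025) and Myl2 (-0.23, SE 0.042, limma adjusted p = 0.0291), and 6 were lower at an unadjusted limma p under 0.05. Over all genes 7.48% were lower at that p. The 6 markers that did not pass changed by -0.21 (Tnni3) to 0.011 (Nppa), and the summed signal of all 8 by -0.14. With the 18S 5′ signal as a covariate 3 members were lower in limma, among them Ppp1r12b (log2 change -0.49, adjusted p = 0.0376) and Ppp1r3b (-0.50, adjusted p = 0.0398), and Ppp1r12a was the third. Ppp6r3 had a log2 change of -0.42 (adjusted p = 0.0509), and the 8 falls lay between -0.67 (Dusp26) and -0.25 (Dusp16) in this fit. The 8 genes that fell had a median gene span of 60.3 kb, against 21.2 kb over the 113 members, 51.7 kb over all genes called lower and 20.3 kb over all genes. All genes called higher had a median span of 17.7 kb. With the dependence on gene span taken out within each array, 8 members were called lower. In that fit 1.18% of all genes were called lower, against 0.945% in the main fit. The part of gene span in the falls was not tested. The part of RNA quality and of cell composition in the 8 falls was not tested beyond these values.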

How the data were processed

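RNA of 10 pools of whole embryonic hearts was hybridised to 10 Affymetrix mouse genome arrays, 5 per genotype. The deposited table holds log2 probe set signals, made by the authors with RMA and Partek per the submitters' processing notes; software versions are not given in the sources used here. Array medians of these values ran from 3.65 to 3.76. Of 45101 probe sets, 64 array controls, 932 with several symbols and 9160 with none were left out, which left 18193 genes. A linear model per gene was fitted (limma 3.58.1, R 4.3.3, no filter on low values, no pseudocount), with Benjamini-Hochberg adjustment over all genes and a threshold of 0.05. Paralogue pairs and sums of markers were tested by exact two-sided permutation over arrays. The fit was also run on simulated data with independent noise, which hold no differences shared by many genes of an array. That run checks the fit only and is no support for the calls.

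The members and lists were chosen with earlier results of these data known. Named are Hccs, the members past the threshold, the 25 members with the smallest p, the catalytic subunits, the brightest member of each role and, per pathway list, up to 3 genes past the threshold and the brightest that did not pass. Promoter letters are from RefSeq (GRCm38.p6). The labels give no batch, and, although controls were littermates of the knockouts per the labels, the labels do not tie pools to litters. Alternatives covered scaling, filters, probe set choice, variance model, weights, the 18S covariate, gene span, the replicate block and left-out arrays. The number of arrays limits the precision, and between-array correlations were 0.992 to 0.998. Replicate numbers did not pair the samples.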

Additional observations from a re-analysis of the deposited data

Results flagged for a closer look

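Of 102 groups of 5 arrays examined, 9 (8.82%) held 1 array far from the others by Dixon's rule, against about 1 in 20 by chance. Among the phosphatase genes, Dusp16 was high in control replicate 1 (9.76, next 9.65), Ppp2r5d was high in control replicate 5 (8.87, next 8.67), Ppp1r14c was low in control replicate 1 (12.74, next 13.14) and Ppp2cb was low in control replicate 4 (11.25, next 11.33), all as log2 signals. Among the summed marker signals, that of cardiomyocytes was low in control replicate 4 (18.45, next 18.51), that of endothelial cells was low in knockout replicate 3 (12.90, next 13.06) and that of fibroblasts was high in control replicate 1 (15.07, next 14.89). The nerve cell sum was high in control replicate 3 (8.99, next 7.14) and in knockout replicate 5 (7.08, next 6.70).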

How the results depend on the processing

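No called phosphatase gene changed sign under any alternative run. The count of 8 lower genes was 0 at an adjusted p of 0.01, 0 with the replicate block, 4 with the mean of all probe sets, 5 with the most variable probe set, 3 with the 18S covariate, 0 when both arrays numbered 3 were dropped, and 0 to 9 leaving out 1 array. The other alternatives gave 6 to 12, in fits where 0.594% to 3.12% of all genes were called lower. The 12 came at a threshold of 0.1 (2.36% of all genes). Array weights gave 10 (1.73%), and the filter at the median gave 10 of 78 members (3.12%). The share of all genes called lower moved as well, from 0.945% to 0% at 0.01, 0.033% with the block, 0.418% and 0.632% with the mean and the most variable probe set, 0.808% with the 18S covariate and 0.022% without the arrays numbered 3. The count of 1 higher gene was 0 at 0.01, 2 at 0.1, 0 with the replicate block, after quantile normalization, after median centring, with a trended, robust variance and without the arrays numbered 3, 2 with the mean of probe sets or the most variable one, 4 with array weights, and 0 to 2 leaving out 1 array. The share of all genes called higher was 1.63% in the main fit, 0.077% at 0.01, 4.02% at 0.1 and 0.165% with the block. It was 1.26% after quantile normalization, 1.51% after median centring, 1.74% with the trended, robust variance and 0.143% without the arrays numbered 3. With the mean and the most variable probe set it was 1.5% and 1.82%, and with array weights 3.47%. Leaving out 1 array gave 0.401% to 4.13%. The cause was not tested; fits with fewer arrays or a block have fewer degrees of freedom, and the numbers do not pair the samples (correlations of deviations -0.091 to 0.077, with 1 of 5 best matched to its own number). The Hccs change was -0.55 with the replicate block (limma adjusted p = 0.0735), -0.50 with the 18S covariate (0.109) and -0.59 without the arrays numbered 3 (0.0714), and -0.60 to -0.48 leaving out 1 array.

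Among paralogue pairs, with the mean of probe sets Ppp1ca minus Ppp1cb was -0.38 and Ppp1cb minus Ppp1cc was 0.34, both then past the exact permutation test (adjusted p = 0.0476), and with the most variable probe set they were -0.26 and 0.18 (adjusted exact permutation p of 0.714 and 0.733). Leaving out 1 array they ran from -0.43 to -0.24 and from 0.26 to 0.42. Signs turned for 3 pairs. Ppp1ca minus Ppp1cc was -0.037 after quantile normalization, -0.038 with the mean of probe sets, -0.081 with the most variable one and -0.023 to 0.023 leaving out 1 array. Ppp3ca minus Ppp3cb was -0.061 with the mean of probe sets. Ppp2r1a minus Ppp2r1b was -0.11 with the mean of probe sets, -0.24 with the most variable one, 0.0063 after quantile normalization, 0.076 without the arrays numbered 3 and -0.044 to 0.065 leaving out 1 array.

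Genes that did not pass turned sign as follows. With the mean of probe sets Ppp1cc was 0.021, Ppp2ca 0.034, Ppp3ca -0.039 and Ppp3cb 0.021. With the most variable probe set Ppp2r3a was 0.11, Ppp1cc 0.065, Ppp2ca 0.093 and Dusp3 0.12. With the 18S covariate Ppp1cc was 0.021, Ppp3ca -0.028, Ppp6c 0.050 and Ppp4r2 0.063. After quantile normalization Ppp3ca was -0.013 and Ppp5c -0.0024, after median centring Ppp2r1a was 0.011, with array weights Ppp3ca was -0.015 and Ppp2r1a 0.043, and with the gene span trend removed Ppp5c was -0.013. Leaving out 1 array, Ppp3ca ran from -0.059 to 0.049, Ppp5c from -0.012 to 0.067, Ppp2r1a from -0.027 to 0.032 and Dusp6 from -0.0054 to 0.20. Scaling moved the median change of all genes from 0.025 to 0.0060 (quantile) or 0.041 (centring).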
